A study of Saccharomyces cerevisiae and Saccharomyces kudriavzevii and Saccharomyces uvarum with 18 samples.

Results

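The 31 genes described here encode the enzymes of the citrate cycle, the glyoxylate bypass and the pyruvate dehydrogenase complex, with both pyruvate carboxylases, the NADP-linked isocitrate dehydrogenases IDP1 and IDP2 and the malic enzyme. They were chosen by their open reading frame (ORF) names, with earlier results of these data known. The rule itself used no measured value, and all 31 were found among the 6172 genes on the arrays. RNA was taken at the beginning of stationary phase from wine fermentations of Tempranillo must at 28°C and at 12°C. The 3 strains were S. uvarum CECT 12600, which the study names S. bayanus var. uvarum, S. kudriavzevii IFO 1802 and the commercial wine yeast S. cerevisiae Fermol cryophile. Each of 18 two-colour arrays set 1 strain against the mesophilic wine yeast S. cerevisiae Lalvin T73 grown at the same temperature, so that there were 6 groups of 3 arrays (replicates A, B and C). By the sample titles, each species set against T73 was thus represented by a single strain. Another label gives the S. uvarum replicates different collection numbers, and the titles were followed. T73, itself S. cerevisiae, was present on every array. All values below are log2 of strain over T73, so 1 unit is a doubling, and S. cerevisiae alone stands for Fermol cryophile.

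In yeast mitochondria, pyruvate dehydrogenase converts pyruvate to acetyl-CoA, and the citrate cycle oxidises it to carbon dioxide while reducing electron carriers for respiration. When sugar is plentiful, S. cerevisiae ferments and represses most of these genes, and the cycle then runs largely as 2 branches that supply 2-oxoglutarate for glutamate and succinate. The glyoxylate bypass lets cells build sugar from acetate or ethanol. The retrograde pathway, with the transcription factors Rtg1 and Rtg3, is known to maintain the expression of the genes that lead to 2-oxoglutarate when respiration is weak.

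A ratio on these arrays is no level, so the genes cannot be ranked by abundance. A change of the ratio between temperatures is the change in the strain minus the change in T73, and these cannot be told apart. The probes were PCR products of S. cerevisiae ORFs, and differences in hybridisation may enter the ratios of S. uvarum and S. kudriavzevii. The study reports from a test with genomic DNA that most genes of both species hybridised to these arrays. Close paralogs (PYC1 and PYC2, the citrate synthases, the malate and the NADP-linked isocitrate dehydrogenases) may share signal. Differences between arrays of 1 group were large. The standard deviation over all genes lay between 0.63 and 1.99 per array. Arrays of the same group correlated with a median r of 0.161 at 28°C and 0.43 at 12°C, and arrays of different temperatures with a median r of 0.059 (81 pairs, lowest -0.618, 15 pairs below -0.3). Their direction was kept because the labels give the same dyes throughout. Of 558 values of the 31 genes 2 were missing, 1 of them for PDX1 in S. uvarum C at 28°C.

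**Figure D1:**
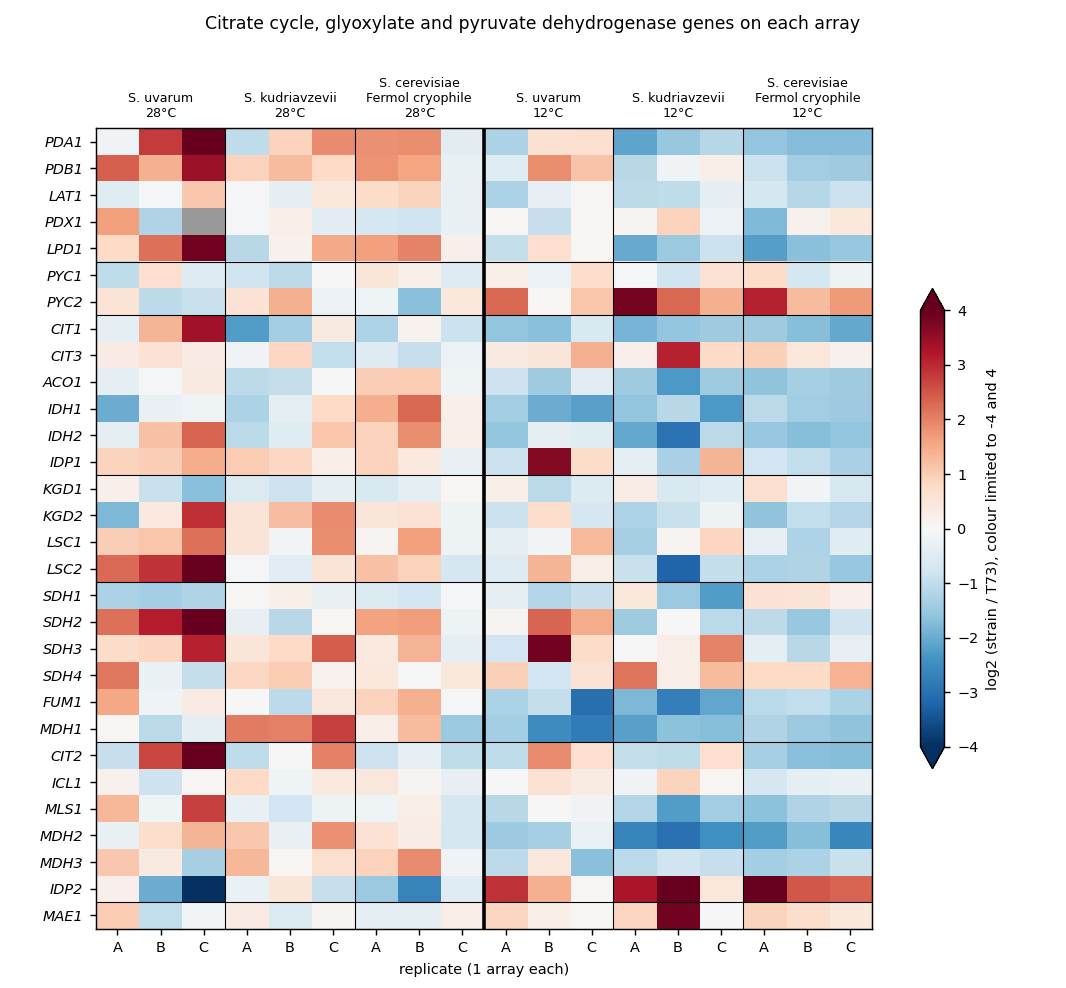
Log2 of strain over T73 for the genes reported by name (rows, by role) on the 18 arrays (columns, by strain, temperature and replicate), red above 0, blue below 0, grey missing, with the colour limited to 4 in size. Most rows are redder at 28°C than at 12°C, and PYC2, IDP2, CIT3 and MAE1 are among those that run the other way.

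At 28°C against 12°C, averaged over the 3 strains, 17 of the 31 genes had a higher ratio to T73 and 2 had a lower one (limma with Benjamini-Hochberg adjustment over 6092 genes, adjusted p below 0.05, referred to as called). The higher genes made up 54.8% of the 31, against 19.8% of all genes tested, and the lower ones 6.45%, against 16.4%. The median difference was 1.18 over the 31 genes and 0.145 over all genes, and with each array centred on its own median 16 were higher and 3 lower, against 16.8% and 18.3% of all genes. Cytosolic malate dehydrogenase MDH2 and mitochondrial malate dehydrogenase MDH1 had the largest positive differences, 2.48 and 2.45. The cytosolic NADP-linked isocitrate dehydrogenase IDP2 and the pyruvate carboxylase PYC2 were the genes with a lower ratio, at -3.68 and -2.02. The 9 arrays at 28°C overlapped the 9 arrays at 12°C for all of the 29 members with a value on every array, while 1.92% of 5007 such genes lay entirely above and 1.68% entirely below.

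Of the 19 averaged calls, 15 were kept when any 1 of the 18 arrays was left out. The others were CIT1 (lost without S. kudriavzevii C or S. cerevisiae B at 28°C), LAT1 (lost without S. kudriavzevii C, S. cerevisiae A or B at 28°C or S. uvarum A at 12°C), KGD2 (7 arrays) and LSC1 (13 arrays), and over the 18 fits their differences ranged from 1.12 to 1.75 for CIT1, 0.80 to 1.07 for LAT1, 1.04 to 1.82 for KGD2 and 0.87 to 1.25 for LSC1. The control spots moved with temperature too. The Arabidopsis spot averaged -0.79 ± 0.72 (SD, n = 9) at 28°C, where it was below 0 on 8 of 9 arrays, and 1.95 ± 0.87 (SD, n = 9) at 12°C, where it was above 0 on 9 of 9. The buffer spot averaged -1.36 ± 1.24 at 28°C and 0.62 ± 1.3 at 12°C (SD, n = 9 each). Both spots moved in the direction of IDP2 and PYC2 and opposite to the 17 genes with a higher ratio, and their part in the temperature results was not tested.

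**Figure D2:**
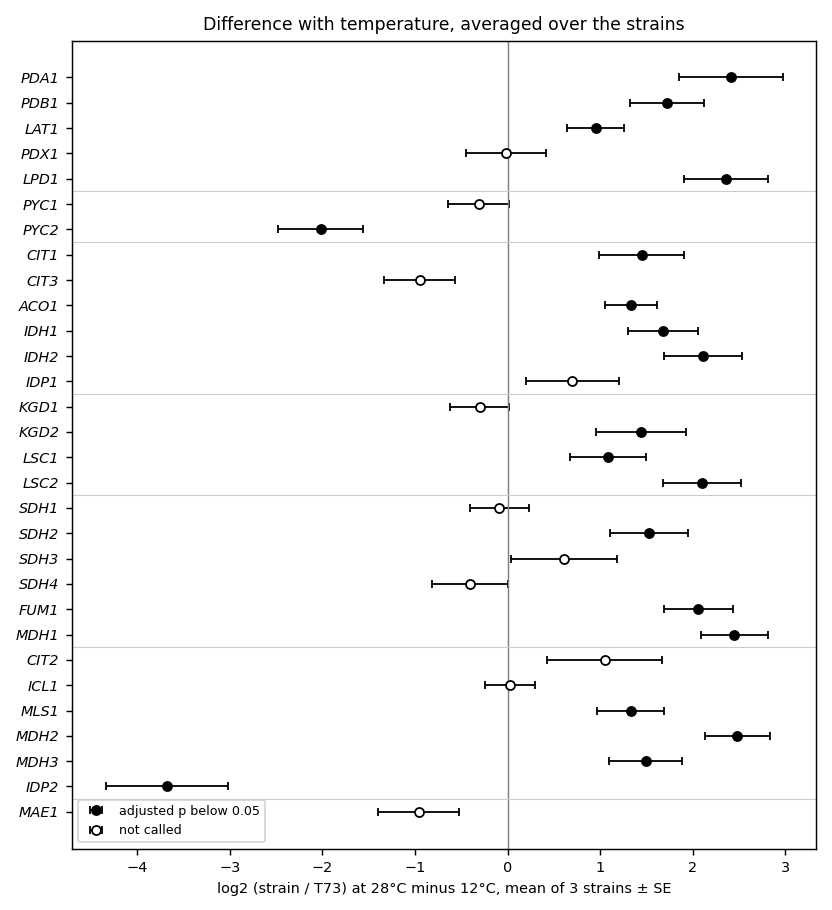
Difference in log2 (strain over T73) at 28°C minus 12°C, averaged over the 3 strains (x axis), for each gene reported by name, by role (y axis); points are limma estimates, bars are ± 1 SE, filled points were called. PDA1, LPD1, LSC2, IDH2, FUM1, MDH1 and MDH2 lie above 2, and IDP2 and PYC2 lie at -3.68 and -2.02.

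Of the 5 pyruvate dehydrogenase genes, 4 were called with a higher ratio to T73 at 28°C than at 12°C. Higher or lower at 28°C is used in this sense for the genes that follow. The counts by role each rest on few genes, and 19.8% of all genes were called higher and 16.4% lower. PDA1 (YER178W) encodes the E1 alpha subunit. At 28°C it read -0.13, 2.81 and 4.19 in S. uvarum, with -1.01, 0.93 and 1.88 in S. kudriavzevii and 1.82, 1.85 and -0.42 in S. cerevisiae. At 12°C it read -1.26, 0.61 and 0.64 in S. uvarum, with -2.10, -1.51 and -1.13 in S. kudriavzevii and -1.56, -1.74 and -1.73 in S. cerevisiae. All 3 arrays at 28°C lay above all 3 at 12°C in S. kudriavzevii and in S. cerevisiae, while the groups overlapped in S. uvarum. The averaged difference was 2.41 ± 0.56 (SE, adjusted p = 0.00412). The study found no hybridisation of the S. kudriavzevii copy of this gene in a test with genomic DNA, so the ratio of that strain may not measure its expression.

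LPD1 (YFL018C) encodes dihydrolipoamide dehydrogenase, the E3 subunit that pyruvate dehydrogenase shares with 2-oxoglutarate dehydrogenase. At 28°C it read 0.80, 2.19 and 3.85 in S. uvarum, with -1.12, 0.18 and 1.52 in S. kudriavzevii and 1.65, 1.97 and 0.20 in S. cerevisiae. The arrays at 12°C gave -0.96, 0.68 and 0.04 in S. uvarum, with -2.03, -1.47 and -0.87 in S. kudriavzevii and -2.20, -1.69 and -1.51 in S. cerevisiae. Replicates at 28°C lay above those at 12°C without overlap in S. uvarum and in S. cerevisiae. Averaged over the strains, the difference was 2.36 ± 0.45 (adjusted p = 0.00134). PDB1, the E1 beta subunit, differed by 1.72 ± 0.40 and LAT1, the E2 acetyltransferase core, by 0.95 ± 0.31, while PDX1, which anchors E3 to the core, differed by -0.02 ± 0.43 and was not called.

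The pyruvate carboxylases make oxaloacetate from pyruvate in the cytosol and so refill the cycle. PYC2 (YBR218C) at 28°C read 0.55, -1.05 and -0.90 in S. uvarum, with 0.56, 1.43 and -0.24 in S. kudriavzevii and -0.19, -1.66 and 0.41 in S. cerevisiae. At 12°C the values were 2.31, 0.08 and 1.10 in S. uvarum, with 3.82, 2.28 and 1.42 in S. kudriavzevii and 3.08, 1.26 and 1.69 in S. cerevisiae. Every array at 12°C was above 0, and the S. cerevisiae arrays did not overlap between temperatures. The difference averaged over strains was -2.02 ± 0.46 (adjusted p = 0.00362). Its paralog PYC1, set beside it after the values were seen, differed by -0.31 ± 0.33 (adjusted p = 0.474), with values from -1.05 to 0.67 at 28°C and from -0.79 to 0.75 at 12°C.

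From citrate to 2-oxoglutarate, 4 of 7 genes were higher at 28°C. ACO1 (YLR304C) is the mitochondrial aconitase, which turns citrate into isocitrate. At 28°C it read -0.35, -0.06 and 0.36 in S. uvarum, with -1.05, -0.97 and -0.02 in S. kudriavzevii and 0.98, 1.01 and -0.16 in S. cerevisiae. On the 12°C arrays it read -0.82, -1.43 and -0.46 in S. uvarum, with -1.43, -2.28 and -1.41 in S. kudriavzevii and -1.62, -1.32 and -1.42 in S. cerevisiae. The replicates did not overlap between temperatures in any of the 3 strains, and all 9 arrays at 12°C were below 0. The averaged difference was 1.33 ± 0.28 (adjusted p = 0.00249).

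IDH1 (YNL037C) and IDH2 (YOR136W) encode the subunits of the NAD-linked isocitrate dehydrogenase. At 28°C IDH1 read -1.98, -0.30 and -0.18 in S. uvarum, with -1.27, -0.34 and 0.80 in S. kudriavzevii and 1.45, 2.31 and 0.19 in S. cerevisiae. At 12°C it read -1.34, -1.98 and -2.16 in S. uvarum, with -1.59, -1.10 and -2.29 in S. kudriavzevii and -1.09, -1.39 and -1.45 in S. cerevisiae. Only in S. cerevisiae were the replicates separate, and the averaged difference was 1.68 ± 0.38 (adjusted p = 0.00359). At 28°C IDH2 read -0.37, 1.19 and 2.34 in S. uvarum, with -1.07, -0.50 and 1.10 in S. kudriavzevii and 0.93, 1.86 and 0.22 in S. cerevisiae. The arrays at 12°C gave -1.54, -0.40 and -0.49 in S. uvarum, with -2.04, -2.95 and -1.07 in S. kudriavzevii and -1.52, -1.69 and -1.59 in S. cerevisiae. Replicates of IDH2 were separate in S. cerevisiae and S. uvarum and met in S. kudriavzevii, where both closest arrays read -1.07, and the averaged difference was 2.11 ± 0.42 (adjusted p = 0.00171).

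The mitochondrial citrate synthase CIT1 differed by 1.45 ± 0.46 and was below 0 on all 9 arrays at 12°C. The mitochondrial NADP-linked enzyme IDP1 differed by 0.70 ± 0.50 and was not called. CIT3, a mitochondrial synthase of citrate and methylcitrate, differed by -0.95 ± 0.38 (adjusted p = 0.0595) and was above 0 on all 9 arrays at 12°C.

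Between 2-oxoglutarate and succinate, 3 of 4 genes were higher at 28°C. LSC2 (YGR244C), the beta subunit of succinyl-CoA ligase, at 28°C read 2.27, 2.90 and 4.36 in S. uvarum, with -0.08, -0.46 and 0.53 in S. kudriavzevii and 1.18, 0.91 and -0.66 in S. cerevisiae. At 12°C the values were -0.52, 1.35 and 0.27 in S. uvarum, with -0.89, -3.20 and -0.96 in S. kudriavzevii and -1.27, -1.20 and -1.50 in S. cerevisiae. Replicates were separate between temperatures in all 3 strains, and the averaged difference was 2.10 ± 0.42 (adjusted p = 0.00171). The alpha subunit LSC1 differed by 1.08 ± 0.41 and KGD2, the E2 subunit of 2-oxoglutarate dehydrogenase, by 1.44 ± 0.49. KGD1, the E1 subunit of the same complex, differed by -0.30 ± 0.32 and was not called.

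Between succinate and oxaloacetate, 3 of 6 genes were higher at 28°C, and these were SDH2, FUM1 and MDH1. SDH2 (YLL041C) is the iron-sulfur subunit of succinate dehydrogenase. At 28°C it read 2.20, 3.14 and 4.76 in S. uvarum, with -0.34, -1.12 and 0.06 in S. kudriavzevii and 1.60, 1.68 and -0.19 in S. cerevisiae. On the 12°C arrays it read 0.12, 2.33 and 1.50 in S. uvarum, with -1.42, -0.03 and -1.09 in S. kudriavzevii and -1.04, -1.51 and -0.79 in S. cerevisiae. S. uvarum was above 0 on all 6 arrays, and only S. cerevisiae had no overlap between temperatures. Averaged over the strains, the difference was 1.53 ± 0.42 (adjusted p = 0.011). The other subunits were not called, with -0.09 ± 0.32 for the flavoprotein SDH1, 0.61 ± 0.57 for the membrane anchor SDH3 and -0.41 ± 0.41 for the membrane anchor SDH4.

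FUM1 (YPL262W), the fumarase of mitochondria and cytosol, at 28°C read 1.54, -0.13 and 0.34 in S. uvarum, with 0.03, -1.05 and 0.45 in S. kudriavzevii and 0.93, 1.41 and -0.08 in S. cerevisiae. At 12°C it read -1.25, -0.96 and -3.01 in S. uvarum, with -1.79, -2.74 and -2.06 in S. kudriavzevii and -1.06, -0.97 and -1.26 in S. cerevisiae. The replicates were separate in each strain, with every array at 12°C below 0, and the averaged difference was 2.06 ± 0.37 (adjusted p = 0.000859). MDH1 (YKL085W), which makes oxaloacetate in mitochondria, at 28°C read 0.07, -1.08 and -0.37 in S. uvarum, with 2.09, 2.02 and 2.75 in S. kudriavzevii and 0.26, 1.27 and -1.48 in S. cerevisiae. The arrays at 12°C gave -1.37, -2.52 and -2.81 in S. uvarum, with -2.18, -1.65 and -1.72 in S. kudriavzevii and -1.20, -1.49 and -1.61 in S. cerevisiae. The temperatures were separate in S. uvarum and in S. kudriavzevii. Replicate C of S. cerevisiae at 28°C, at -1.48, lay within the range of that strain at 12°C. The difference averaged over strains was 2.45 ± 0.36 (adjusted p = 0.000326).

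Among the genes of the glyoxylate bypass and the enzymes outside mitochondria, 3 of 6 were higher and 1 was lower at 28°C. MDH2 (YOL126C), the cytosolic malate dehydrogenase, at 28°C read -0.29, 0.71 and 1.35 in S. uvarum, with 1.08, -0.29 and 1.82 in S. kudriavzevii and 0.57, 0.30 and -0.66 in S. cerevisiae. At 12°C the values were -1.44, -1.33 and -0.27 in S. uvarum, with -2.68, -2.98 and -2.47 in S. kudriavzevii and -2.25, -1.71 and -2.62 in S. cerevisiae. All 9 arrays at 12°C were below 0, and the temperatures overlapped in S. uvarum, by 1 array each. The averaged difference was 2.48 ± 0.35 (adjusted p = 0.000304).

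IDP2 (YLR174W) makes NADPH and 2-oxoglutarate in the cytosol. At 28°C it read 0.21, -1.99 and -4.30 in S. uvarum, with -0.26, 0.49 and -0.94 in S. kudriavzevii and -1.50, -2.68 and -0.48 in S. cerevisiae. On the 12°C arrays it read 2.90, 1.43 and 0.04 in S. uvarum, with 3.28, 4.77 and 0.44 in S. kudriavzevii and 4.05, 2.49 and 2.33 in S. cerevisiae. All 9 arrays at 12°C were above 0 and 7 of 9 at 28°C were below it, and only S. cerevisiae had separate replicates. Averaged over the strains, the difference was -3.68 ± 0.66 (adjusted p = 0.000881), the largest in size among the 31 genes. The peroxisomal malate dehydrogenase MDH3 differed by 1.49 ± 0.39 and the malate synthase MLS1 by 1.33 ± 0.36. The peroxisomal citrate synthase CIT2 differed by 1.05 ± 0.62 and ICL1, the isocitrate lyase of the bypass, by 0.03 ± 0.27, and neither was called. The mitochondrial malic enzyme MAE1 differed by -0.96 ± 0.44 (adjusted p = 0.0966) and was above 0 on all 9 arrays at 12°C.

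**Figure D3:**
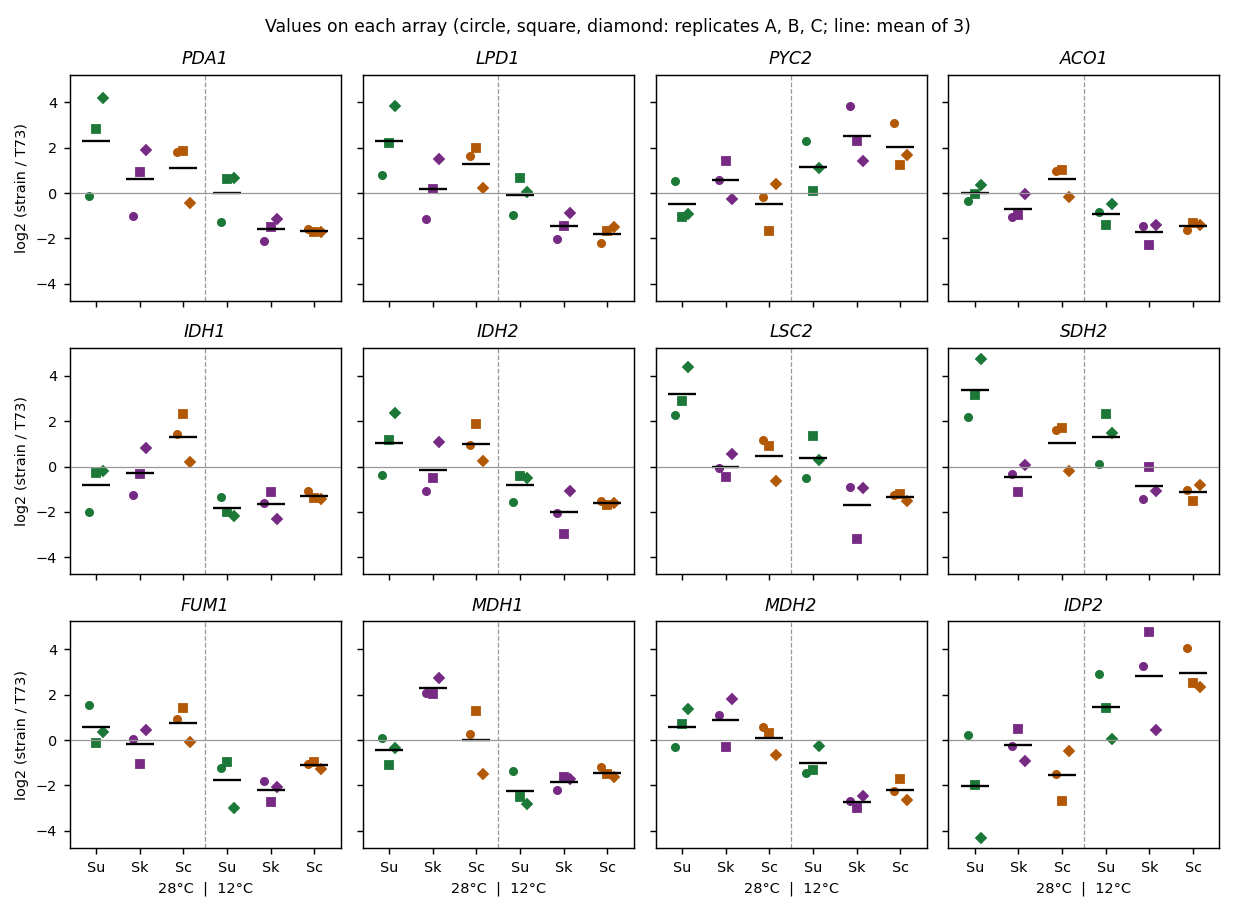
Log2 of strain over T73 (y axis) on each array for the 12 genes with the smallest adjusted p, by strain and temperature (x axis; Su, S. uvarum; Sk, S. kudriavzevii; Sc, S. cerevisiae Fermol cryophile); symbols are replicates A, B and C, and the line is the mean of 3. MDH1 at 28°C reads above 2 in S. kudriavzevii alone, and LSC2 and SDH2 at 28°C read above 2 in S. uvarum alone.

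Within single strains, fewer of these differences passed the test. In S. cerevisiae, 6 genes were higher at 28°C than at 12°C (LPD1 by 3.07 ± 0.78, IDH1 by 2.63 ± 0.66, IDH2 by 2.61 ± 0.73, MDH2 by 2.26 ± 0.60, PDB1 by 2.25 ± 0.69 and ACO1 by 2.07 ± 0.49) and 2 were lower (IDP2 at -4.51 ± 1.14 and PYC2 at -2.49 ± 0.79). These were 19.4% and 6.45% of the 31 genes, against 5.64% and 6.57% of all genes, so the lower share was near that of all genes. In S. kudriavzevii MDH1 was higher by 4.14 ± 0.62 (adjusted p = 0.0234) and MDH2 by 3.58 ± 0.60 (adjusted p = 0.0251), against 0.261% of all genes called higher. In S. uvarum LSC2 was higher by 2.81 ± 0.73 (adjusted p = 0.0458), where 2.87% of all genes were called in both directions together. Higher calls were 3.23% of the 31 genes and 2.0% of all genes, so this share was near that of all genes. IDP2 differed by -3.48 ± 1.14 in S. uvarum (adjusted p = 0.0906) and by -3.06 ± 1.14 in S. kudriavzevii (adjusted p = 0.153) and was called in neither. None of the 31 genes passed the test of a different temperature effect between strains in any of 3 pairs, for which 0.0% of all genes were called, and 2, 0 and 2 of them had an unadjusted p below 0.05, against 4.85%, 2.79% and 5.62% of all genes. The median difference over the 31 genes was 0.888 in S. uvarum, 0.824 in S. kudriavzevii and 1.35 in S. cerevisiae, against 0.129, -0.042 and 0.278 over all genes.

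These within-strain calls rested on few arrays. The counts below stand without the share of all genes in the same fits and show only how the calls moved. In S. cerevisiae no member was called without replicate A or B at 28°C or without replicate A or B at 12°C, and 1 was called without replicate C at 12°C, while 15 were called without replicate C at 28°C. In S. kudriavzevii none was called without replicate A or C at 28°C or replicate B at 12°C, and 1 was called without replicate B at 28°C or replicate A at 12°C. The LSC2 call in S. uvarum was lost without any of 14 arrays, and its difference then lay between 2.22 and 3.30.

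Set against T73 at 28°C, S. uvarum had 5 of the 31 genes higher and 1 lower, where 7.99% of all genes were called higher and 2.88% lower. These were 16.1% and 3.23% of the 31 genes, so the lower share was near that of all genes. The higher genes were SDH2 (3.37 ± 0.52, SE, adjusted p = 0.00287), LSC2 (3.18 ± 0.51, adjusted p = 0.00296), PDB1 (2.42 ± 0.49), PDA1 (2.29 ± 0.69) and LPD1 (2.28 ± 0.55), and the lower one was SDH1 (-1.27 ± 0.39, adjusted p = 0.0487). Without S. uvarum C at 28°C only SDH2 was called, at 2.67. The SDH1 call was lost without any of 14 arrays, with values over the 18 fits from -1.31 to -1.23, and in 4 of 8 other settings. The PDA1 call was lost without any of 5 arrays, with values from 1.34 to 3.50, and in 4 of 8 other settings. CIT2 had a like size at 2.04 ± 0.76 but was not called (adjusted p = 0.0894), with -0.92, 2.69 and 4.35 on its arrays. S. kudriavzevii had 1 gene higher, MDH1 at 2.29 ± 0.44 (adjusted p = 0.0479), and none lower, against 0.146% and 0.0% of all genes, and this call was lost without any of 10 arrays, its own 3 among them. In S. cerevisiae limma called none of the 31, where 0.0163% of all genes were called in each direction, and 2 had an unadjusted p below 0.05, against 13.4% of all genes. With limma's array weights, 10 were higher and 1 was lower, against 16.2% and 10.2% of all genes.

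At 12°C, S. kudriavzevii had 4 genes higher and 10 lower than T73, where 13.7% of all genes were called higher and 9.74% lower. These were 12.9% and 32.3% of the 31 genes, so the higher share was near that of all genes. The lower genes included MDH2 (-2.71 ± 0.43, adjusted p = 0.00208), FUM1 (-2.20 ± 0.45), IDH2 (-2.02 ± 0.52), MDH1 (-1.85 ± 0.44), ACO1 (-1.71 ± 0.35), LSC2 (-1.69 ± 0.51), IDH1 (-1.66 ± 0.46), CIT1 (-1.61 ± 0.56) and MLS1 (-1.59 ± 0.44). The higher genes were IDP2 (2.83 ± 0.80), PYC2 (2.51 ± 0.56), MAE1 (1.58 ± 0.54) and CIT3 (1.34 ± 0.46). The CIT3 and MAE1 values leant on replicate B, which read 3.08 and 3.85, and were 0.47 and 0.45 without it. The LSC2 value leant on replicate B too, which read -3.20, and was -0.93 without it. The CIT1 call (adjusted p = 0.0482) was lost without any of 14 arrays, with values from -1.70 to -1.47. It was also lost in 4 of 8 other settings, as was the LSC2 call. Without replicate A 7 of the 31 genes were called and without replicate B 6, with no share of all genes given for these fits.

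S. uvarum at 12°C had 3 genes lower than T73 and none higher, where 3.96% and 2.44% of all genes were called. These were MDH1 (-2.23 ± 0.44, adjusted p = 0.0111), IDH1 (-1.83 ± 0.46) and FUM1 (-1.74 ± 0.45), and none was called without its replicate B or C. S. cerevisiae at 12°C had 2 genes higher, IDP2 (2.96 ± 0.80) and PYC2 (2.01 ± 0.56), and 2 lower, MDH2 (-2.20 ± 0.43, adjusted p = 0.0171) and ACO1 (-1.45 ± 0.35), where 5.61% and 2.51% of all genes were called. Each direction held 6.45% of the 31 genes, so the higher share was near that of all genes. None of these genes was called when any 1 of its own 3 arrays was left out, and 17 of the 31 had an unadjusted p below 0.05, against 28.9% of all genes. With quantile normalisation 2 were higher and 7 lower, against 8.49% and 4.96% of all genes.

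The median over the 31 genes in the strains against T73 was 0.511 in S. uvarum, -0.003 in S. kudriavzevii and 0.293 in S. cerevisiae at 28°C. At 12°C it was -0.079 in S. uvarum, -0.823 in S. kudriavzevii and -1.10 in S. cerevisiae. The medians over all genes lay between -0.132 and 0.086. On the S. cerevisiae arrays at 12°C, 22 to 24 of the genes were below 0, while 54.8% to 56.9% of all ORFs were. The Arabidopsis spot averaged -0.26 in S. uvarum, -1.10 in S. kudriavzevii and -1.02 in S. cerevisiae at 28°C. At 12°C its means were 1.58 in S. uvarum, 1.90 in S. kudriavzevii and 2.36 in S. cerevisiae, and its part in the ratios to T73 was not tested either.

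**Figure D4:**
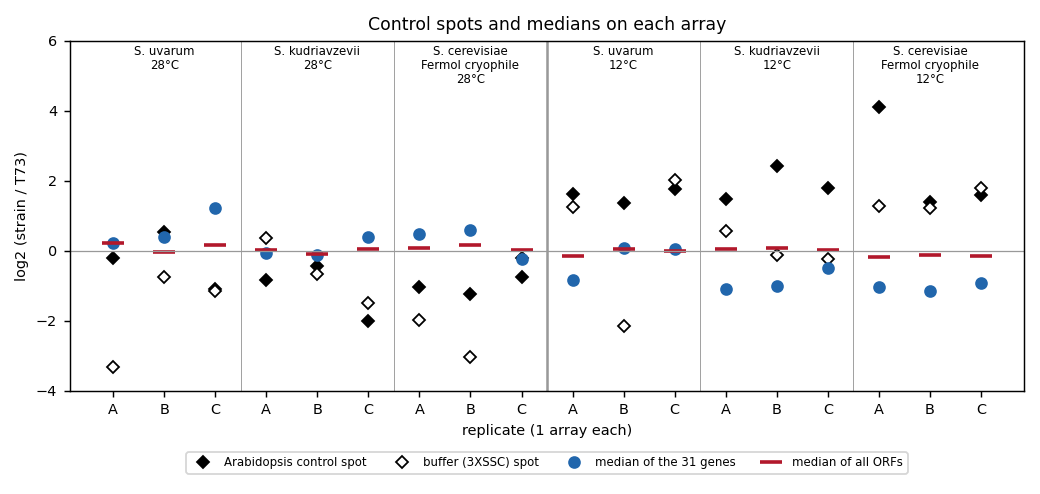
Log2 of strain over T73 (y axis) on each of the 18 arrays (x axis) for the Arabidopsis spot (filled diamonds), the buffer spot (open diamonds), the median of the 31 genes (circles) and the median of all ORFs (red lines). The Arabidopsis spot is below 0 on 8 of 9 arrays at 28°C and above 0 on 9 of 9 at 12°C, and the median of the 31 genes is below 0 on 7 of 9 arrays at 12°C.

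By the study's rule, a median over replicates at least 2-fold from T73 with no test, 13 of the 31 genes changed in S. uvarum at 28°C (11 higher, 2 lower), where 34.2% of all genes did. The numbers were 5 in S. kudriavzevii (background 15.1%) and 6 in S. cerevisiae (22.5%) at 28°C. At 12°C they were 10 in S. uvarum (27.8%), 17 in S. kudriavzevii (3 higher, 14 lower, background 40.3%) and 18 in S. cerevisiae (2 higher, 16 lower, background 30.3%). The 6 lower genes in S. uvarum at 12°C were CIT1, IDH1, FUM1, MDH1, MDH2 and MDH3, and the 4 higher ones were PDB1, PYC2, SDH2 and IDP2. All these comparisons share T73 as the other channel, so that their lists are not independent.

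The strains were also compared with each other. Of the 31 genes, SDH2 was the only one called, higher in S. uvarum than in S. kudriavzevii at 28°C by 3.83 ± 0.73 (adjusted p = 0.0492), where 0.146% of all genes were called. The call was lost without any of 14 arrays, with differences from 3.13 to 4.41. In the same pair MDH1 differed by -2.75 ± 0.62 (adjusted p = 0.116) and LSC2 by 3.18 ± 0.73 (adjusted p = 0.118), and neither passed the test. At 28°C, 0.0% of all genes were called between S. uvarum and S. cerevisiae, and 0.0163% for S. kudriavzevii against S. cerevisiae. At 12°C the shares were 0.0% between S. uvarum and S. kudriavzevii, 0.0162% between S. uvarum and S. cerevisiae and 0.0% for S. kudriavzevii against S. cerevisiae. With limma 8, 6 and 4 of the 31 genes had an unadjusted p below 0.05 in these pairs at 28°C, against 11.4%, 8.4% and 7.24% of all genes. At 12°C the numbers were 3, 6 and 1, against 7.32%, 8.1% and 7.12%. The shares called depended on the fit. With array weights, 7.42% of all genes were called higher and 10.2% lower for S. kudriavzevii against S. cerevisiae at 28°C.

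SDH1, SDH2, SDH3 and SDH4 form 1 complex, and their ratios in S. uvarum at 28°C were spread widely. SDH1 read -1.27, -1.34 and -1.20, while SDH2 read 2.20, 3.14 and 4.76 on the same arrays, with no overlap. SDH3 read 0.74, 0.86 and 3.07, and SDH4 read 2.12, -0.28 and -0.94. This set was singled out after its values were seen. The study reports from its genomic DNA test that most S. uvarum genes hybridised, and its text does not name these genes. A part of hybridisation in their ratios was not tested here.

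Of the 31 genes, 6 are known as retrograde targets in S. cerevisiae (CIT1, CIT2, ACO1, IDH1, IDH2 and PYC1). Averaged over the strains, 4 of them were called higher at 28°C, against 54.8% of the 31 genes and 19.8% of all genes. Their median difference was 1.39, against 1.18 over the 31 genes, so a higher ratio was not particular to them. The exceptions were CIT2 and PYC1. DLD3, a retrograde target outside the 31 genes, differed by 1.37 ± 0.83 (adjusted p = 0.204) and was not called. In S. kudriavzevii at 12°C 4 of the 6 were called lower than T73, against 32.3% of the 31 genes and 9.74% of all genes. In S. uvarum and S. cerevisiae 1 each was called lower, against 9.68% and 6.45% of the 31 genes and 3.96% and 2.51% of all genes. DLD3 was called in none of the 3 strains.

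A further 52 genes act next to these enzymes, as kinases and phosphatases of pyruvate dehydrogenase, lipoate enzymes, assembly factors and paralogs, mitochondrial carriers, glutamate and gluconeogenic enzymes and regulators. At 28°C against 12°C, averaged over the strains, 14 of 51 tested were called higher and 5 lower. These were 27.5% and 9.8%, against 19.8% and 16.4% of all genes, and the median was 0.28, against 0.145. The pyruvate dehydrogenase kinase PKP2 was higher by 1.53 ± 0.34 and the phosphatase PTC5 by 1.18 ± 0.35. The other kinase PKP1 and phosphatase PTC6 were not called and ran the other way. PKP1 averaged -0.51 at 28°C and 0.39 at 12°C, and PTC6 0.50 and 1.27. The lipoate enzymes LIP2 and AIM22, which act in attaching the lipoyl cofactor of enzymes such as LAT1 and KGD2, were higher by 1.45 ± 0.33 and 1.06 ± 0.36. KGD4, a further subunit of 2-oxoglutarate dehydrogenase, was higher by 1.90 ± 0.59.

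Of the glutamate enzymes, which take up 2-oxoglutarate or release it, GDH1 was higher by 1.66 ± 0.44, GDH2 by 1.41 ± 0.39 and GLT1 by 1.35 ± 0.34. The protein kinase SNF1, needed to relieve glucose repression, was higher by 1.81 ± 0.34, and the retrograde regulator RTG2 by 1.46 ± 0.28, while the transcription factor RTG1 was lower, at -1.57 ± 0.45. Among 11 mitochondrial carriers, OAC1 and ODC1 were called higher (1.53 ± 0.47 and 0.95 ± 0.36), a share near the 19.8% of all genes. The pyruvate carrier subunit MPC2, the dicarboxylate carrier DIC1 and the succinate-fumarate carrier SFC1 were lower (-1.64 ± 0.43, -1.76 ± 0.38 and -0.78 ± 0.29), while 16.4% of all genes were. SDH5, which attaches the cofactor of SDH1, was lower, at -1.79 ± 0.40, whereas SDH8, which assists the assembly of the same complex, was higher by 1.15 ± 0.32. DAL7, a paralog of MLS1, was higher by 1.20 ± 0.37 and may share its signal.

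In the strains against T73, the further genes called at 28°C were 3 higher (SDH8, GLT1 and PTC5) and 1 lower (MKS1, a negative regulator of the retrograde pathway) in S. uvarum, which were 5.77% and 1.92% of 52, against 7.99% and 2.88% of all genes. In S. kudriavzevii and S. cerevisiae at 28°C limma called none of them, and at most 0.146% of all genes in either direction. At 12°C 6 were higher and 8 lower in S. kudriavzevii (11.5% and 15.4%, against 13.7% and 9.74% of all genes), where MPC2 had 2.33 ± 0.51 and PKP2 -2.57 ± 0.40. In S. uvarum 4 were lower at 12°C (LIP2, PKP2, SNF1 and RTG2), which were 7.69%, against 3.96% of all genes. In S. cerevisiae MPC2 and DIC1 were higher and PKP2 and RTG2 lower, 3.85% each way, against 5.61% and 2.51%.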

How the data were processed

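The authors deposited 1 log2 ratio per ORF and array. By their methods, RNA was amplified, labelled and hybridised to PCR products of S288c ORFs. The sample labels, not the methods, give the strain in Cy3 and T73 in Cy5 on all arrays, with no dye exchange. An effect of the dye on a gene therefore cannot be told apart from its ratio of strain over T73. Scanning used an Axon instrument and GenePix Pro, and Acuity normalised each array and removed spots that were not found. Scanner intensities were not used here, so precision is limited by the number of arrays. The numerator is not given in the sources used here. The deposited sign was turned (multiplied by -1) to strain over T73, after which the direction stated in the study's text for a gene in a strain matched in 64 of 64 cases at 12°C and 50 of 50 at 28°C, which bears on the sign of the file but not on whether the dyes were recorded correctly.

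Of 6180 lines 2 were control spots and were left out of tests. Lines of 6 genes were averaged, which left 6172 genes, with 1.48% of values missing. limma 3.58.1 (R 4.3.3) was fitted to all genes on 18 arrays, a coefficient for each group, with moderated errors (prior degrees of freedom 4.74). A minimum of 2 values per group compared was set, tests were two-sided and p-values were adjusted by Benjamini-Hochberg over the genes tested. T73 counted as 1 control sample whose own spread is left out. Replicates were taken as biological, as the series states, while the methods mention fewer fermentations than arrays, and shared fermentations would make p-values too small. The S. uvarum replicates carry different collection numbers in 1 label, and their titles were followed. Pairs of arrays with the same replicate letter had median residual correlations of -0.054, 0.049 and 0.062, so the letters were not taken to pair them. The code was tested on simulated data. Names came from RefSeq (R64). The 31 genes, the 52 further genes and the tests were chosen with earlier results of these data known. By rule, array values are printed for the 12 called members of smallest adjusted p, and the others are named, except 1 gene that is counted but not reported here. Alternatives were centring, scaling, quantile normalisation, array weights, a replicate block, fits of the compared groups alone, genes with all values, extreme values left out, and each array left out.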

Additional observations from a re-analysis of the deposited data

Results flagged for a closer look

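Values of 10 genes over T73 differed between the temperatures within a strain by limma's test of that difference, with log2 at 28°C minus 12°C of 2.81 for LSC2 in S. uvarum. In S. kudriavzevii they were 4.14 for MDH1 and 3.58 for MDH2. In S. cerevisiae they were 3.07 for LPD1, 2.63 for IDH1, 2.61 for IDH2, 2.26 for MDH2, 2.25 for PDB1, 2.07 for ACO1, -2.49 for PYC2 and -4.51 for IDP2. SDH2 differed between strains, by 3.83 in S. uvarum minus S. kudriavzevii at 28°C.

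The control spots, which no comparison used, also differed between temperatures. The Arabidopsis spot differed by -2.74 and the buffer spot by -1.99, as the mean of 9 arrays at 28°C minus the mean of 9 arrays at 12°C. Their part in the values of the 31 genes was not tested.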

How the results depend on the processing

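No call of the 31 genes changed sign in any setting. Over the alternatives to 59 calls, the call was kept 1232 times and lost 301 times, and 15 calls, all from the averaged temperature comparison, were kept in every setting. For that comparison, the fit of the compared groups alone holds all 18 arrays and equals the main fit, so it could not lose a call. Values beyond 10 in size were absent from the 31 genes, so leaving them out kept each difference as it was. Leaving out an array of a group not compared also leaves the difference unchanged. With 1 array left out, the averaged comparison called 15 to 22 genes, against 19 in full. The other counts ranged from 1 to 9 (S. uvarum over T73 at 28°C), 0 to 1 (S. kudriavzevii at 28°C), 0 to 3 (S. uvarum at 12°C), 6 to 18 (S. kudriavzevii at 12°C), 0 to 8 (S. cerevisiae at 12°C), 0 to 9, 0 to 3 and 0 to 15 (28°C against 12°C within S. uvarum, S. kudriavzevii and S. cerevisiae) and 0 to 4 (strain pairs). Fits of the compared groups alone called 21 (S. cerevisiae over T73 at 12°C), 14 (28°C against 12°C in S. cerevisiae) and 0 in the other groups over T73, the other strains' temperature effects and the pairs. Array weights called 3 and 11 genes at 28°C (S. kudriavzevii, S. cerevisiae), against 7.03% and 16.2% of all genes higher and 4.75% and 10.2% lower. They called 24 in S. cerevisiae at 12°C, against 22.6% of all genes higher and 28.6% lower. Between temperatures in S. cerevisiae they called 24, against 31.5% higher and 22.7% lower, and in the pairs 13. For S. kudriavzevii against S. cerevisiae at 28°C they called 7.42% of all genes higher and 10.2% lower. In each other pair they called at most 1.12% of all genes in either direction. Scaling called 3 (S. uvarum at 28°C, all higher), 4 (S. kudriavzevii at 12°C), 0 between temperatures in S. uvarum and 0 in the pairs. Quantile normalisation called 4 and 9 at 12°C (S. kudriavzevii, S. cerevisiae), against 5.23% and 8.49% of all genes higher and 3.08% and 4.96% lower. It called 0 between temperatures in S. uvarum and 2 in the pairs. Centring called 0 and genes with all values 2 between temperatures in S. uvarum. The replicate block, whose letters did not pair the arrays, called 0 in S. kudriavzevii at 28°C, 7 in S. cerevisiae at 12°C, 0 in the pairs and 19 in the averaged comparison. A 3-fold limit left 7, 1 and 3 genes at 28°C and 2, 7 and 8 at 12°C (S. uvarum, S. kudriavzevii, S. cerevisiae). Counts given without a share of all genes show only how the number of calls moved with the setting. The causes were not tested. With 3 arrays a group and no intensities, signal over background is unknown.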
